A study of Homo sapiens with 6 samples.

Results

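The RNAs described here are 5 noncoding RNAs known to carry a trimethylguanosine (m3G) cap: the small nucleolar RNA U3 (array name SNORD3B-1), the minor spliceosomal RNAs U11 (RNU11), U12 (RNU12) and U4atac (RNU4ATAC), and the telomerase RNA TERC. Every probe whose gene name on the array equals one of these symbols was taken, which gave 8 probes of 50586 on the array, for 5 of 36328 gene names. RNA bearing m3G or 7-methylguanosine (m7G) caps was immunoprecipitated from MOLT-4 cells, a human line of T-cell acute lymphoblastic leukaemia, transfected with an empty vector (mock, 3 samples) or with NUDT16, an RNA decapping enzyme (3 samples). Each eluate was reverse transcribed, labelled with Cy3 and hybridised to a 1-colour Agilent array, so each group has 3 arrays. Nothing in the labels says that the samples of a group came from separate cultures, and p-values then measure only the spread between these arrays. No input RNA was analysed here, so capping, RNA abundance and yield of the immunoprecipitation cannot be told apart.

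RNA polymerase II transcripts receive an m7G cap as they are made. On most spliceosomal RNAs, on U3 and on the telomerase RNA the enzyme TGS1 adds further methyl groups to form the m3G cap, which for spliceosomal RNAs follows export by PHAX and assembly of a ring of Sm proteins, and serves with the adaptor SNUPN in import to the nucleus. U3 guides cleavages of the ribosomal RNA precursor. U11 and U12 recognise the ends of the rare U12-type introns, U4atac delivers U6atac to the same minor spliceosome, and TERC holds the template for telomeric repeats. NUDT16 was first described as a nuclear enzyme that removes caps from the snoRNA U8, which bears the same type of cap.

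The probes decide what each value can say, so their sequences are shown first, as the array files give them, in the sense orientation from 5′ to 3′ and 60 bases each. The first 4 come from U11, U12 and U4atac, with capitals marking ATTTTTG or ATTTTTTG, the core of an Sm binding site.

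U11, A_21_P0000502: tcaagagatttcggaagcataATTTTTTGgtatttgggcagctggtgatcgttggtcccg

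U12, A_24_P23445: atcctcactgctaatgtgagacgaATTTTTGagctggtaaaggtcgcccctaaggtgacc

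U4atac, A_21_P0000503: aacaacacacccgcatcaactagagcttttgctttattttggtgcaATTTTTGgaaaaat

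U4atac downstream, A_33_P3839897: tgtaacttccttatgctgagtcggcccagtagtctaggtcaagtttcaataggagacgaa

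On U3 probes the capitals mark TGATGA and CTGA, the core letters of box C and box D, wherever they occur and whether or not a box lies there.

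U3 5′ part, A_33_P3252333: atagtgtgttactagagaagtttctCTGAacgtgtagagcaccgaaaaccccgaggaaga

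U3 3′ end, A_33_P3226542: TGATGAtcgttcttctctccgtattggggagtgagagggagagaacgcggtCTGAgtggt

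TERC, A_33_P3245248: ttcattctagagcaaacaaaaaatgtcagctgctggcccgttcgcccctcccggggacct

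All 3 probes designed on RefSeq entries of the spliceosomal members held one of the Sm letters, against 660 of all 50586 probes of this length (1.30%), searched on the printed strand only. TGATGA was held by 2.89% of all probes and CTGA by 29.4%. These matches are descriptions of letters and not of bound protein.

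Positions are on hg19 and come from the array files. The U11 probe lies at chr1:28975178-28975237 on the plus strand and starts at position 66 of its target. RefSeq (GRCh38.p14) gives U11 a length of 135 bases and places it within the coordinates of TAF12-DT. The U12 probe lies at chr22:43011300-43011359 and starts at position 49 of an RNA of 150 bases. TERC is represented by chr3:169482636-169482695 on the minus strand, starting at position 153 of 451 bases. The U3 probes lie at chr17:18965252-18965311 and chr17:18965382-18965441, start at positions 27 and 157 of the same RNA of 217 bases, and so read its 5′ part and its 3′ end. Both U3 probes are listed for 4 RefSeq entries, SNORD3B-1, SNORD3B-2, SNORD3A and SNORD3C, and their signal cannot be assigned to one gene copy.

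U4atac has a probe inside the RNA and a second one beyond it. A_21_P0000503 at chr2:122288526-122288585 starts at position 70 of the RNA, which is 130 bases long. A_33_P3839897 at chr2:122288790-122288849 carries the same gene name but was designed on the cDNA DW419002, and 204 bases separate the probes, so it lies outside the mature RNA. RefSeq places RNU4ATAC within the coordinates of CLASP1, which encodes a microtubule-binding protein, and of CLASP1-AS1. The eighth probe, A_33_P3754922, has the gene name RNU11 but was designed on the cDNA BP873537 and is unmapped in the array files.

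The arrays themselves differed in ways that touch every value below. Between 39.3% and 52.0% of the 58717 spots for cell RNA were well above background on 5 arrays, and 14.6% on NUDT16 replicate 2. The 75th percentile of the intensity, by which each array was scaled, was 8.57 on NUDT16 replicate 2 and between 91.7 and 359 on the others. The median of the probes for Agilent's E1A spike-in RNA was 12.48 on NUDT16 replicate 2 on the log2 scale, inside the range of 11.95 to 13.95 of the other arrays. Each of the 3 slides held the mock and the NUDT16 array of one replicate number. On no array did a NUDT16 probe exceed background clearly, while a probe for the pseudogene NUDT16P1 did so on 3 NUDT16 and 0 mock arrays. Of 12 T-lymphoblast markers 8 were detected on all 6 arrays, whereas the epithelial markers EPCAM and CDH1 and the myeloid markers MPO and CSF1R were detected on none. CD79A, a B-cell marker, was detected on all 6.

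Of the 8 member probes, 6 were well above background on all 6 arrays, and they cover all 5 RNAs, against 13% of probes over the whole array. Such detection was not particular to these RNAs. Of RNA polymerase III RNAs without an m3G cap, 9 were on the array and 5 entered the test described below. Of those 5, 4 were well above background on all 6 arrays, beside 37.1% of all tested probes. The downstream U4atac probe was detected on 5 arrays, and the unmapped U11 cDNA probe on 0, with intensities of 5.24 to 16.1, so it gives no information on U11. No member spot was saturated. For the detected spots the scanner software's own error was between 10% and 10.6% of the signal. Signals are given first as unscaled log2 intensity, and then relative to the 75th percentile of the array.

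U4atac gave an almost constant unscaled signal. It read 18.15, 17.98 and 18.36 on mock replicates 1, 2 and 3, and 17.96, 17.81 and 18.53 on the NUDT16 arrays. The groups overlapped, NUDT16 replicate 3 being the highest array and NUDT16 replicate 2 the lowest. Relative to the 75th percentile the same spots read 10.01, 11.46 and 10.40 in mock and 10.17, 14.71 and 10.04 in NUDT16 arrays. On this scale NUDT16 replicate 2 stood above every other array, and the other NUDT16 arrays lay within the mock range.

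The 5′ part of U3 followed the same course. Its unscaled values were 17.30, 17.24 and 17.64 in mock and 17.10, 17.18 and 17.74 in NUDT16 arrays. Scaled, it read 9.16, 10.72 and 9.67 in mock against 9.31, 14.08 and 9.25 in NUDT16 arrays. Both groups covered nearly the same unscaled span, and the scaled values parted at NUDT16 replicate 2 only.

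The 3′ end of the same RNA varied much more. Its unscaled signal was 14.49, 16.64 and 16.19 in mock and 13.75, 15.22 and 16.37 in NUDT16 arrays. Replicate 1 was lowest in both groups. The scaled values were 6.35, 10.12 and 8.23 in mock and 5.97, 12.12 and 7.89 in NUDT16 arrays, again highest on NUDT16 replicate 2.

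U11, which pairs with the 5′ splice site of U12-type introns, read 12.19, 13.42 and 12.31 unscaled in mock and 12.09, 11.49 and 12.98 in NUDT16 arrays. Mock replicate 2 was highest and NUDT16 replicate 2 lowest. Scaled values of U11 were 4.05, 6.90 and 4.34 in mock and 4.31, 8.39 and 4.49 in NUDT16 arrays, with the arrays of replicate 2 highest in each group.

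U12, which pairs with the branch site, read 11.68, 12.13 and 11.19 unscaled in mock and 12.08, 10.86 and 11.92 in NUDT16 arrays. The groups overlapped over most of their range. Relative to the 75th percentile U12 was at 3.54, 5.61 and 3.23 in mock and at 4.30, 7.76 and 3.43 in NUDT16 arrays, so that each NUDT16 array exceeded the mock array of its number.

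TERC was the 1 member whose unscaled values did not overlap between the groups. It read 12.29, 12.54 and 12.31 in mock and 11.97, 10.90 and 12.10 in NUDT16 arrays, all NUDT16 arrays lying below all mock arrays. The difference was -0.72 (exact two-sided permutation p = 0.1, the minimum possible with 3 arrays in each group). Over the 17765 probes tested, unscaled groups without overlap were found for 0.0732%. The order was lost on scaling, with TERC at 4.15, 6.02 and 4.34 in mock and at 4.19, 7.80 and 3.62 in NUDT16 arrays. Limma without scaling gave an adjusted p of 0.911 for TERC. In that fit the SE was 1.89 for every tested member probe, pooled over all probes, so this p does not measure the spread of TERC itself. Unscaled, 1.32% of all tested probes were higher with NUDT16 and their median difference was -1.10, so TERC fell by less than the median probe. Its unscaled mock values had an SD of 0.14.

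**Figure D1:**
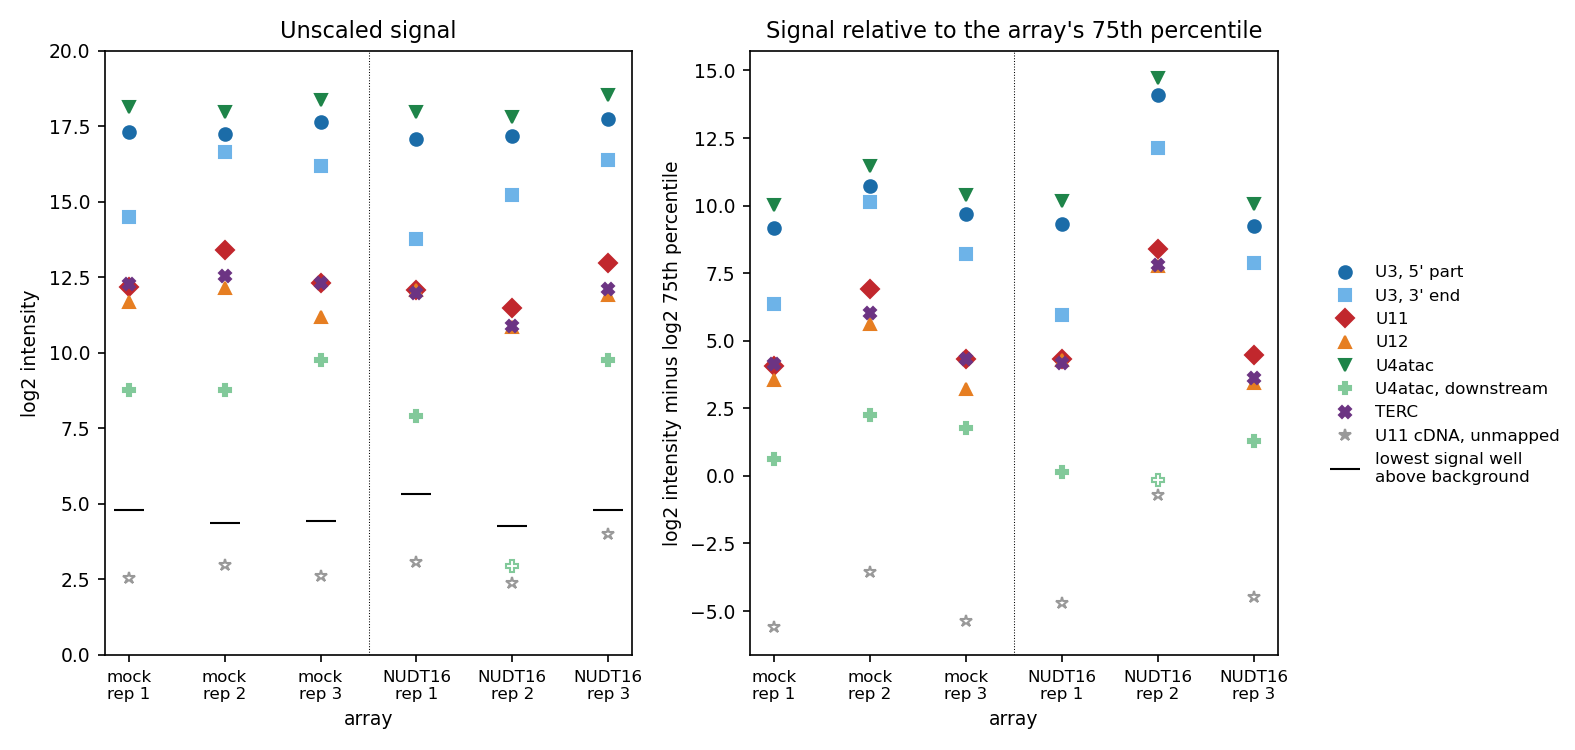
Signal of the 8 member probes on each array, unscaled (left, log2 intensity) and relative to the array's 75th percentile (right, log2), with open symbols for spots not well above background and bars for the lowest signal well above background. On the left U4atac and the 5′ part of U3 stay within 0.72 and 0.64 over 6 arrays, and on the right most member probes are highest on NUDT16 replicate 2.

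The comparison of the groups asks whether supplying the decapping enzyme changes how much of these RNAs is recovered with their caps. No member probe passed the adjusted threshold of 0.05, with or without the replicate number as a block. Of 17765 probes tested with limma without the block (two-sided, adjusted over all of them by Benjamini-Hochberg), 1 was called at 0.05, which is 0.00563%. Of the 7 member probes that entered this test 0 were called, with 0 at an unadjusted p under 0.05. No tool other than limma was run over all probes.

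The spliceosomal members were nominally higher with NUDT16. U4atac went from 10.62 ± 0.75 to 11.64 ± 2.66 (SD, n = 3 each), a difference of 1.02 (SE 1.04). U12 went from 4.13 ± 1.30 to 5.16 ± 2.29 (SD, n = 3 each), a difference of 1.04 (SE 1.0), and U11 from 5.10 ± 1.57 to 5.73 ± 2.31 (SD, n = 3 each), a difference of 0.63 (SE 1.05). On this scale U11 and U12 were higher in NUDT16 in 3 of 3 same-numbered pairs, and the share of all probes that were so was not computed. Unscaled, the 3 pairs differed by -0.10, -1.93 and 0.67 for U11 and by 0.40, -1.27 and 0.72 for U12. The standard errors of these scaled group differences, which ignore the pairs, were about as large as the differences or larger. The SD was larger in the NUDT16 group each time. Same-numbered arrays shared a slide, and with the replicate as a block the SEs were smaller. They were 0.37 for U11, 0.43 for U12 and 0.68 for U4atac, with limma adjusted p of 0.485, 0.482 and 0.501.

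For U3 the 5′ part was at 9.85 ± 0.80 in mock and 10.88 ± 2.77 in NUDT16 arrays (SD, n = 3 each), a difference of 1.03 (SE 1.07). The 3′ end differed by 0.43 (SE 1.29) and TERC by 0.36 (SE 0.97). With the replicate as a block the SE was 0.71 for the 5′ part, 0.52 for the 3′ end and 0.50 for TERC. The probe downstream of U4atac had the opposite sign, at 1.55 ± 0.84 in mock and 0.42 ± 0.76 in NUDT16 arrays (SD, n = 3 each), a difference of -1.13 (SE 0.66), with 2 of 3 NUDT16 arrays well above background.

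Limma's adjusted p without the block was 0.999 for each of the 7 probes. Exact two-sided permutation tests, which also ignore the pairs, gave p between 0.2 and 1. The groups overlapped for all 7 probes, as they did for all but 1.37% of the probes tested. In total 6 of the 7 had a positive difference, with a median of 0.63, beside 48.8% of all tested probes and a median of -0.02. The 7 probes include the downstream U4atac probe, which passed the filter through its mock arrays. With the filter on all 6 arrays, 6 of 6 member probes had a positive difference, with a median of 0.83. Of the 6582 probes in that fit 63.6% were positive, with a median of 0.25.

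The pair of replicate 2 had the largest difference for each tested member probe. Within the pair of replicate 2 the scaled difference was 3.36 for the 5′ part of U3, 3.25 for U4atac, 2.15 for U12, 2.01 for the 3′ end of U3, 1.77 for TERC and 1.49 for U11. In the pairs of replicates 1 and 3 the same 6 probes lay between -0.73 and 0.75. Without NUDT16 replicate 2 all 7 differences were below 0, with a median of -0.70 against -0.07 over all probes. That fit kept mock replicate 2, the array of the same slide, and so broke the pair. Fitted on replicates 1 and 3 alone, with their number as a block, 2 of the 7 were positive, U12 at 0.48 and U11 at 0.20. Of all tested probes 49.8% were positive there. The members' median was -0.13 and 0 were called, while 2.83% of all tested probes were called in that fit.

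**Figure D2:**
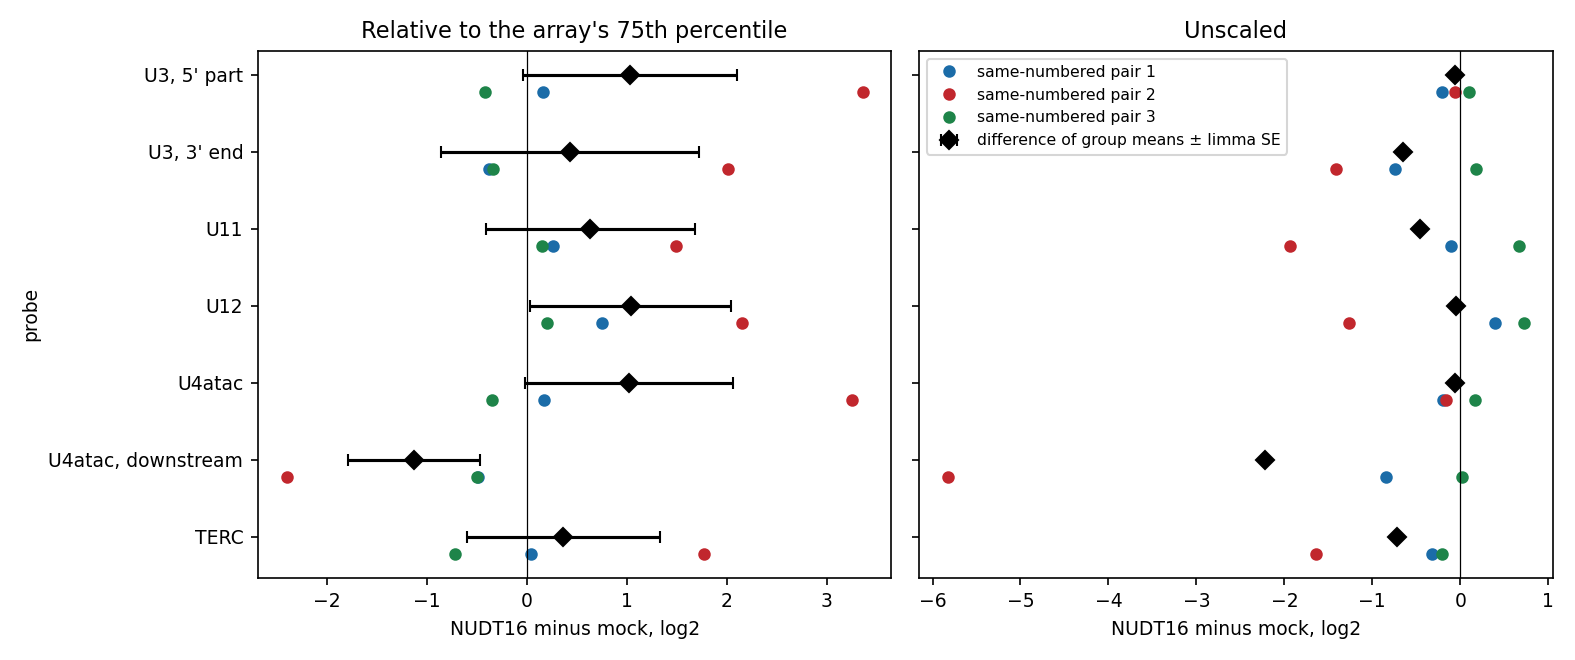
Difference between NUDT16 and mock (log2) for the 7 member probes tested, relative to the 75th percentile of the array (left, diamonds with limma's standard error) and unscaled (right, without an error bar), with circles for the 3 same-numbered pairs. On the left the pair of replicate 2 lies far from the pairs of replicates 1 and 3, and on the right the bright probes of U3 and U4atac lie near 0 in every pair.

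Scaling decided the sign for most members. Without scaling all 7 tested probes were lower in the NUDT16 group, with a median of -0.45, while 1.32% of all tested probes were higher, with a median of -1.10. A shift of whole arrays moves all probes alike, so the members' median stayed 0.65 above that of all probes. With normexp background correction the medians were -0.10 for the members and -0.09 for all probes. With each array set to its spike-in probes, 3 of 7 were higher and the median was -0.06. Of all tested probes 8.68% were higher there, with a median of -0.71. On that scale U4atac differed by 0.33, U12 by 0.34, U11 by -0.06 and TERC by -0.33. TERC was lower in each of the 3 pairs there, with differences of -0.68, -0.18 and -0.13, as it was unscaled. The share of all probes lower in each of the 3 pairs was not computed.

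On NUDT16 replicate 2 most probes that were still detected there read lower than on mock replicate 2, and by more than the 6 member probes inside the RNAs. The downstream U4atac probe differed by -5.83 in that pair and is left out of these shares, since probes that fell to background there are not among those detected on all arrays. Over the 6582 probes detected on all 6 arrays, the unscaled difference within the pair of replicate 2 had a median of -3.25, with 10th and 90th percentiles of -4.96 and -1.60. The 5′ part of U3 differed by -0.06 and U4atac by -0.16 in that pair, with 0.988% and 1.17% of all these probes higher. U12, at -1.27, had 6.21% of the probes above it, the 3′ end of U3, at -1.41, had 7.67%, TERC, at -1.64, had 10.6%, and U11, at -1.93, had 14.6%. In the pair of replicate 1 the members' median was -0.20 against -0.06 over all these probes, and in the pair of replicate 3 it was 0.18 against 0.60. There TERC, at -0.20, was exceeded by 98.2% of the probes.

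The span between the highest and the lowest array puts this on one scale. Unscaled signals of all 6582 probes spanned a median of 5.47 over the 6 arrays. The span was 1.27 for U12, 1.64 for TERC and 1.93 for U11, smaller than for all but 1.03%, 1.46% and 2.17% of these probes. It was 2.88 for the 3′ end of U3, with 6.40% of probes below it. For the 5′ part of U3 it was 0.64, with 0.395% below it, and for U4atac 0.72, with 0.486% below it. Among probes of like brightness, in steps of the mean signal, the shares below were 1.99% for U4atac, 0.662% for the 5′ part of U3, 11.3% for its 3′ end, 1.11% for U11, 0.883% for U12 and 0.738% for TERC.

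The span of the spike-in probes shrank at the bright end. Spike-in probes with means between 7.72 and 15.75 spanned 1.81 to 2.18 over the 6 arrays. The 3 brightest, with means of 17.67, 17.85 and 18.61, spanned 1.25, 0.40 and 0.30. U4atac, with a mean of 18.13, lies among these 3. The 5′ part of U3, at 17.36, lies below them, between the spike-in probes with means of 15.75 (span 1.81) and 17.67 (span 1.25), and its span of 0.64 was smaller than both. U11, U12 and TERC, with means of 12.41, 11.64 and 12.02, lie where spike-in probes still spanned 1.90 or more. Their spans of 1.27 to 1.93 lay near or below the 1.90 and 2.09 of the spike-in probes nearest to them in brightness, with means of 11.81 and 13.66. The part of this narrowing at the bright end in the values of U4atac and U3 was not tested.

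**Figure D3:**
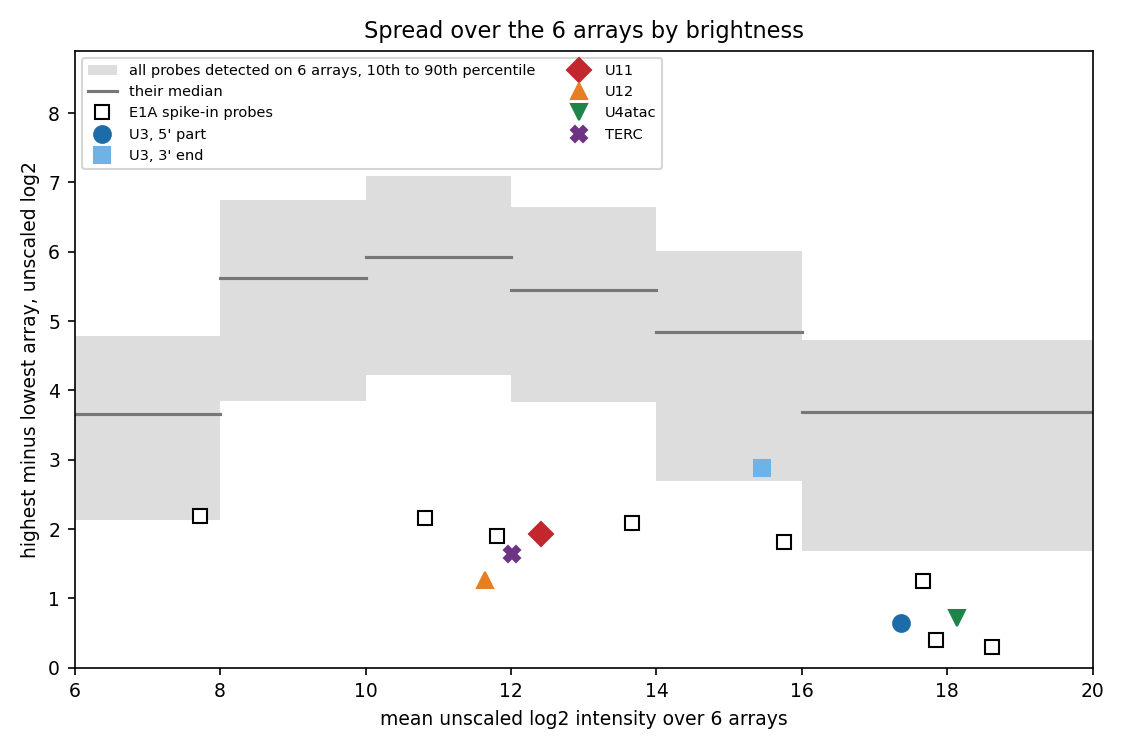
Span between the highest and lowest of the 6 arrays (unscaled log2) against mean unscaled log2 intensity, for 6 member probes (coloured), 8 E1A spike-in probes (open squares) and, as grey bands in steps of brightness, all 6582 probes detected on all arrays. U11 lies level with the spike-in probes of like brightness, U12 and TERC lie below them, and each of these members lies below the band. The spike-in probes fall to 0.30 at the bright end, where U4atac lies and just below which the 5′ part of U3 lies.

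A pair of probes on one RNA can be compared on each array free of any scaling, and only the change of their ratio between arrays has meaning, since probes differ in affinity. This comparison was chosen after the values had been seen. In U3, the 5′ part read 6.99, 1.52 and 2.72 times the 3′ end in mock and 10.1, 3.87 and 2.57 times in NUDT16 arrays. The ratio moved more with the replicate number than with the transfection, being highest in replicate 1 of both groups. On the log2 scale it was 1.62 ± 1.11 in mock and 2.22 ± 1.02 in NUDT16 arrays (SD, n = 3 each). The difference of 0.60 was within the spread, with an exact two-sided permutation p of 0.6, and in the pairs it was 0.54, 1.35 and -0.08. Leaving out single arrays moved the difference between 0.04 (without NUDT16 replicate 1) and 1.20 (without mock replicate 1). Spike-in spans narrowed with brightness, from 1.81 at 15.75 to 1.25 at 17.67, the range that holds the brighter 5′ probe, and the part of this in the ratio was not tested.

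In U4atac, the RNA read 672, 588 and 392 times the downstream probe on mock arrays 1, 2 and 3. On NUDT16 arrays it read 1059 and 435 times in replicates 1 and 3. On replicate 2 the downstream probe was not well above background, and the ratio was at least 11831, taking the dimmest spot called above background there as the limit. The 3 ratios of the NUDT16 group exceeded those of the mock arrays of the same number, but the groups overlapped. Without NUDT16 replicate 2, where the ratio is only a bound, the log2 difference between the group means was 0.34. Unlike the U3 ratio, this one sets the RNA against a probe that lies outside it. U4atac also lies among the brightest spike-in probes, which spanned 1.25, 0.40 and 0.30. The part of that narrowing in the ratio was not tested.

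**Figure D4:**
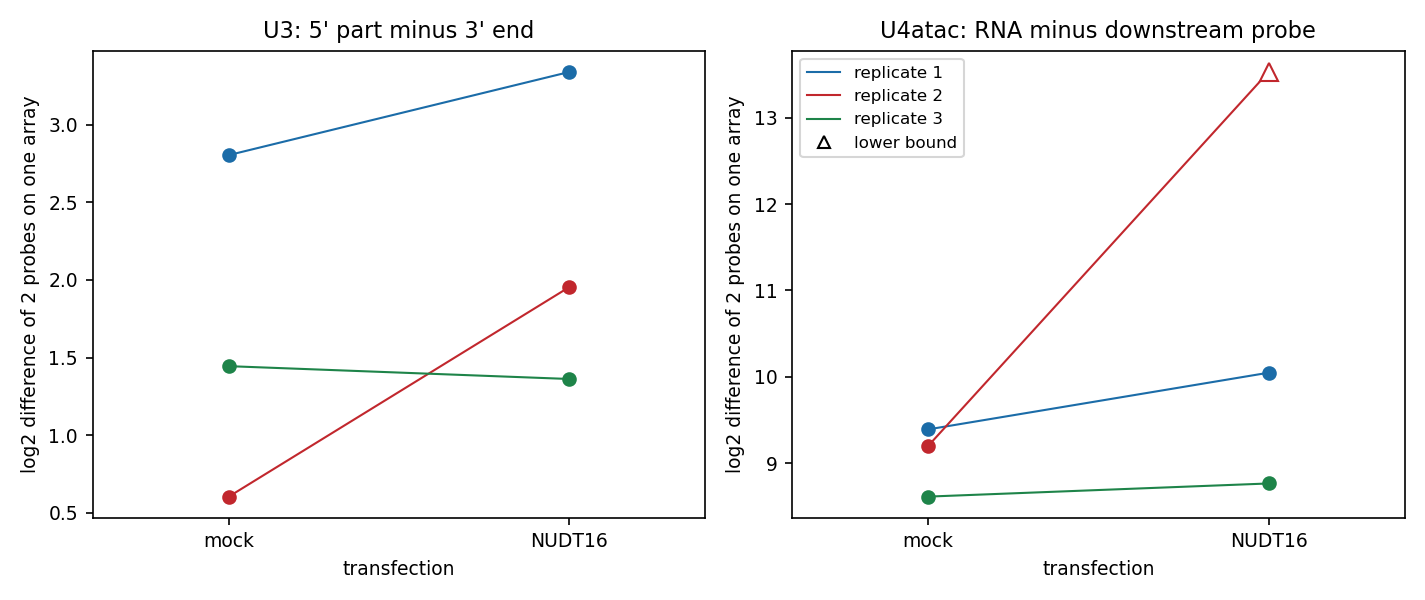
Log2 difference between 2 probes of one gene on the same array, for U3 (left, 5′ part minus 3′ end) and U4atac (right, RNA minus downstream probe), with lines joining the same-numbered mock and NUDT16 arrays and an open triangle for a lower bound. The U3 lines of replicates 1 and 2 go up and that of replicate 3 is nearly level, and the U4atac bound of replicate 2 stands apart from the other arrays.

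The downstream probe did not follow the U4atac RNA. Unscaled, it read 8.76, 8.78 and 9.75 in mock and 7.91, 2.95 and 9.77 in NUDT16 arrays. The CLASP1 probe A_23_P311232 read 8.41, 7.04 and 9.02 in mock and 7.65, 2.26 and 9.21 in NUDT16 arrays, and A_33_P3312975 read 8.49, 7.62 and 9.34 in mock and 7.34, 2.13 and 9.65 in NUDT16 arrays. The downstream probe and both CLASP1 probes were well above background on every array but NUDT16 replicate 2, a pattern shared by 55.6% of all tested probes, whereas the U4atac RNA read 17.81 there. Their scaled differences were -0.70 (SE 0.62) and -1.02 (SE 0.68), not called by limma (adjusted p 0.999 for both). The gene name RNU4ATAC thus covers signals that did not move together on these arrays, and an average over its probes would mix them.

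**Figure D5:**
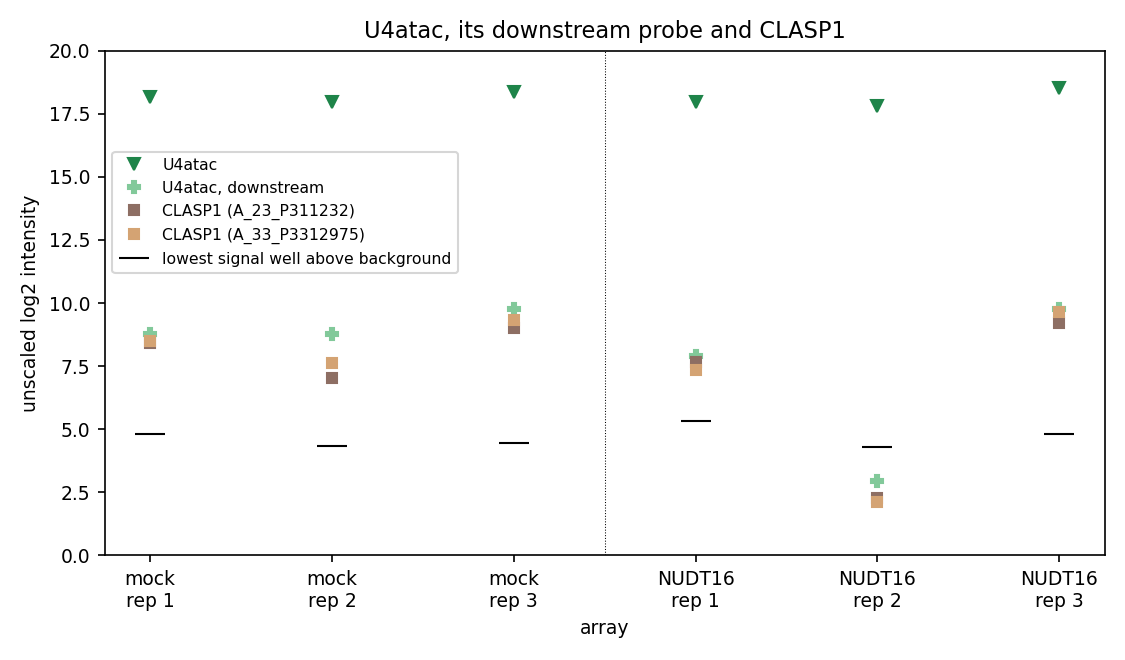
Unscaled log2 intensity on each array of the U4atac RNA probe, the probe downstream of it and the 2 probes of CLASP1, with bars for the lowest signal well above background. On NUDT16 replicate 2 the downstream probe and both CLASP1 probes lie below the bar, between 2.13 and 2.95, and the U4atac probe reads 17.81.

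The genes closest in pattern to each member were found among 5701 genes detected on all 6 arrays, as the smallest root-mean-square difference of scaled log2 signals after removing each probe's own mean over 6 arrays. The median distance of all genes to a member was between 1.48 and 2.22. Closest to TERC were VPREB3 (0.06) and the histone H3 genes HIST1H3G (0.15) and HIST1H3D (0.15). Closest to U11 were the snoRNA SNORD104 (0.18) and the histone H4 genes HIST1H4H (0.20) and HIST2H4B (0.22). U12 had the unnamed transcript THC2680609 (0.26) and the H4 genes HIST1H4K (0.26) and HIST1H4D (0.28) nearest to it. The 3′ end of U3 had RNU1-5, a U1 RNA (0.21), well ahead of LOC255177 (0.46) and HIST4H4 (0.47). Nearest to U4atac were ZNF713 (0.06), ACBD7 (0.08) and LZTS2 (0.08), and nearest to the 5′ part of U3 were ACBD7, LOC284454 and TBXA2R (0.08 each). All these distances share the same 6 arrays and are dominated by the arrays that differ most.

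Among themselves the members fell apart by probe rather than by RNA class. The unscaled root-mean-square difference was 0.08 between U4atac and the 5′ part of U3, the smallest of 15 pairs of member probes, and 0.92 between both U3 probes. U11, U12 and TERC lay between 0.40 and 0.43 of each other. U4atac and the 5′ part of U3 were also the brightest member probes, with unscaled means of 18.13 and 17.36. U11, U12 and TERC were alike in brightness, at 12.41, 11.64 and 12.02. The part of brightness in these distances was not tested.

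RNAs of related or contrasting kinds were read from lists. Of 23 further m3G-capped RNAs listed, RNU2-2, a copy of U2, had a probe on the array under a listed symbol, and it differed by -0.01 (SE 1.04) over all arrays and by -0.82 on replicates 1 and 3. Of 17 listed RNA polymerase III RNAs without an m3G cap, 9 were on the array and 5 entered the test, all 5 with a positive difference and a median of 0.51, and 0 were called. On replicates 1 and 3 alone their median was -0.0062, with 2 of 5 positive. The signal recognition particle RNA RN7SL1 differed by 0.51 (SE 0.79), the transcription regulator RN7SK by 0.52 (SE 0.83), the RNase P RNA RPPH1 by 0.20 (SE 0.84) and the RNase MRP RNA RMRP by 0.68 (SE 0.88). RNU6ATAC, which encodes U6atac, the partner of U4atac, differed by 0.03 (SE 0.67) and was detected on 5 arrays. Their values within the pair of replicate 2 ran from 0.10 to 1.82, beside 1.49 to 3.36 for the 6 member probes inside the RNAs.

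Genes for the proteins that make, carry and use these RNAs were taken one probe each, the brightest that entered the test. For cap addition, trimethylation, export and import, 11 of 13 listed symbols were tested, with a median difference of -0.81, against -0.02 over all probes, and 0 were called. Of these 11 genes, 9 entered the test through the mock arrays alone, as did 62.8% of all tested probes, so their count by sign is not read here. TGS1 was at 2.75 ± 0.46 in mock and 1.93 ± 0.84 in NUDT16 arrays (SD, n = 3 each), a difference of -0.81 (SE 0.63), PHAX differed by -1.22 (SE 0.76) and SNUPN by -0.20 (SE 0.58). In the fit on replicates 1 and 3 the median of this list was -0.28.

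The other protein lists had medians between -0.55 and 0.13, beside -0.02 over all tested probes, of which 48.8% were positive. In each list between 6 and 12 genes entered through the mock arrays alone, so the counts by sign are given but not read as a result. SMN complex and Sm ring genes, which build the Sm core on U11, U12 and U4atac, had 6 of 20 positive and a median of -0.26, which turned to 0.16 on replicates 1 and 3. Among them SNRPD2 differed by 0.51 (SE 0.72) and SMN1 by -0.48 (SE 0.61), whose sequence is nearly identical to that of SMN2. Proteins of the U3 particle had 7 of 18 positive and a median of -0.05 (0.04 on replicates 1 and 3), with the methyltransferase FBL at -0.03 (SE 0.64) and NOP58, a core protein of box C/D particles, at -0.94 (SE 0.66). Minor spliceosome genes had 6 of 15 positive and a median of -0.28 (-0.19 on replicates 1 and 3), with SNRNP25 at 0.51 (SE 0.60) and ZRSR2 at -1.18 (SE 0.65).

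Telomerase genes, a list that also holds TGS1, had 4 of 11 positive and a median of -0.55 (-0.20 on replicates 1 and 3). The reverse transcriptase TERT differed by 0.74 (SE 0.68) and the TERC-binding pseudouridine synthase DKC1 by -0.83 (SE 0.61). Genes for transcription and 3′ processing of snRNA genes had 7 of 17 positive and a median of -0.41 (-0.07 on replicates 1 and 3), and decapping and decay genes 10 of 20 and a median of 0.13 (0.29 on replicates 1 and 3), with DCP2 at -0.03 (SE 0.69) and XRN1 at 0.50 (SE 0.62). In each of these lists 0 genes were called by limma, with or without the replicate block, and every adjusted p without the block was 0.999. Without the block, the count at an unadjusted p under 0.05 was 0 in each list too. With the block it was not computed.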

How the data were processed

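Cap-immunoprecipitated RNA of 6 MOLT-4 samples was read on 1-colour Agilent arrays. The deposited scanner output holds a processed intensity per spot, which per the file headers came from Agilent Feature Extraction 10.7.3.1 on array design 039494, already background-subtracted, with positions on hg19. The authors' value table, in log2 units, was used as an alternative, and the submitters' processing notes name limma. Its exact steps are not given in the sources used here.

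Control and flagged spots were left out, spots of a probe were averaged, and log2 intensity was scaled to the 75th percentile of each array. Probes that were well above background throughout at least 1 group entered limma 3.58.1 (R 4.3.3), with Benjamini-Hochberg adjustment over 17765 probes and a threshold of 0.05. Single values had an exact permutation test. The fit was tested on simulated data. Array number limits the precision.

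Same-numbered arrays shared a slide and a scan, and correlations of their departures from group means were 0.84, 0.39 and 0.77, so the numbers pair the arrays. All member probes are named. Beside each, the 3 genes nearest in pattern are named, and lists are given by counts. Members and lists were chosen with earlier results of these data known. Symbols and lengths are from RefSeq GRCh38.p14. Alternatives covered background correction, scaling, filters, the block, weights and each array left out.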

Additional observations from a re-analysis of the deposited data

How the results depend on the processing

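Over 132 recomputed differences of the 7 tested member probes, 102 kept their sign and 30 turned it, and none passed the threshold (lowest adjusted p 0.245). Only the downstream U4atac probe kept its sign under every alternative that could be fitted, and it drops out with the filter on all 6 arrays. Without scaling the differences were -0.45 for U11, -0.063 for U4atac, -0.050 for U12, -0.66 for the 3′ end of U3, -0.055 for its 5′ part and -0.72 for TERC. With the median shift U11 was at -0.080, the 3′ end of U3 at -0.28 and TERC at -0.35, and with the spike-in shift they were at -0.064, -0.27 and -0.33. Normexp gave -0.10, -0.36 and -0.34 for the same probes. Quantile normalization gave -0.00154 for U4atac and -0.14 for the 3′ end of U3, which was also negative with array weights (-0.34) and in the authors' table (-0.25).

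With the replicate as a block on all arrays, the differences were the same, U4atac keeping 1.02, and adjusted p lay between 0.482 and 0.709, so the pairing changed no call, with 2 member probes (U12 and the downstream U4atac probe) at an unadjusted p under 0.05, as were 7.96% of all tested probes, the downstream probe having entered the test through the mock arrays alone. On replicates 1 and 3 with the block, U4atac was at -0.094, the U3 probes at -0.13 (5′ part) and -0.36 (3′ end) and TERC at -0.34. The downstream U4atac probe was at -0.50, while U12 and U11 stayed positive, at 0.48 and 0.20. Leaving out each array in turn gave -0.70 to 1.53 for U11, -0.51 to 1.82 for U4atac, -0.27 to 1.90 for U12, -1.30 to 1.77 for the 3′ end of U3, -0.57 to 1.85 for its 5′ part and -0.94 to 1.15 for TERC. The lowest value came without NUDT16 replicate 2 each time, and without mock replicate 1 the 3′ end of U3 was at -0.51. The cause of these reversals was not tested.

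Over the whole array 1 probe was called, and 0 were with normexp, no scaling, the spike-in shift, no filter, the filter on all 6 arrays or the authors' table, where 11, 1, 1, 225, 2 and 10 probes had an unadjusted p under 0.05. On replicates 1 and 3 with the block 503 were called. In that fit each tested member probe had the same SE, 0.26. The same held without scaling (1.89), with the median shift (1.09) and with the spike-in shift (2.06). These SEs were pooled over all probes, so p-values from these fits do not measure a probe's own spread. With 3 arrays a group the standard errors of the member differences were 0.66 to 1.29 in the main fit and 0.37 to 0.71 with the replicate block. NUDT16 replicate 2 had 14.6% of spots well above background. The downstream U4atac probe has only a bound on that array.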
